A study of Mus musculus with 6 samples.

Results

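Liver RNA was sequenced from 6 mice, and the 10 genes described here are those that make urea from ammonia or feed that pathway in periportal hepatocytes. The 10 genes are Cps1, Otc, Ass1, Asl, Arg1, Nags, Slc25a15, Gls2, Hal and Sds. They were chosen by name, as known members of the urea cycle and markers of the periportal liver. The rule used no measured value, but earlier results of these data were known when the choice was made. All 10 were found among the 35540 gene symbols of the table, and all 10 passed the filter on low values, which left 14189 genes. The groups were 3 mice of the genotype Surf4 fl/fl Alb-Cre+ and, as controls, 3 littermates of the genotype Surf4 fl/fl Alb-Cre-. Every mouse carried 2 conditional Surf4 alleles, in which loxP sites flank exon 2. The Alb-Cre+ mice also carried Cre recombinase driven by the albumin promoter, which acts in hepatocytes, so that other liver cells keep an intact gene. The controls carried no Cre, so the effect of the deletion and that of Cre itself cannot be told apart. Both groups held 2 males, numbered 1 and 3, and a female, numbered 2. The age of these mice is not given in the sources used here. The paper's methods state that the alleles were kept on the C57BL/6J background. They also state, for blood and tissue collection in general, that the animals had been fasted overnight. The levels below are therefore not to be read as those of fed liver.

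The urea cycle disposes of the ammonia set free when amino acids are broken down. Its first steps take place in hepatocyte mitochondria and the rest in the cytosol, and its enzymes are known to be concentrated in hepatocytes around the portal vein, while those around the central vein make glutamine. Cps1 (carbamoyl phosphate synthetase) captures ammonia, and Otc (ornithine transcarbamylase) joins the product to ornithine to give citrulline. Ass1 and Asl (argininosuccinate synthetase and lyase) then build arginine, and Arg1 (arginase) splits it into urea and ornithine. Nags makes N-acetylglutamate, the obligatory activator of Cps1. Slc25a15 carries ornithine into the mitochondrion in exchange for citrulline. Gls2 (liver glutaminase), Hal (histidine ammonia-lyase) and Sds (serine dehydratase) release ammonia from glutamine, histidine and serine.

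On GRCm38 the cycle enzymes lie on separate chromosomes. Cps1 spans chr1:67123026-67231259, Otc chrX:10252305-10321024 and Ass1 chr2:31470207-31520672, all on the plus strand. Asl spans chr5:130011258-130029247 and Arg1 chr10:24915221-24927484, both on the minus strand. Nags spans chr11:102145513-102149477, Gls2 chr10:128194457-128210004, Hal chr10:93488768-93519304 and Sds chr5:120476526-120483932, all on the plus strand. Slc25a15 spans chr8:22375551-22398597 on the minus strand. In the GENCODE M21 annotation, exons of 3 of the 10 genes overlap exons of a gene on the opposite strand. Gls2 shares 97 exonic bases with Spryd4, Nags shares 443 with the antisense gene Gm11586, and Sds shares 360 with Plbd2 and 141 with the antisense gene Gm15690. Whether the libraries kept strand is not given in the sources used here, so reads from those stretches cannot be assigned with certainty.

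Upstream sequence was available for 5 of the 10 genes (Otc, Ass1, Nags, Hal and Slc25a15), in RefSeq's annotation of GRCm38.p6. It is shown for the 3 genes that the comparisons in TPM single out. These are Slc25a15, the one gene whose genotype groups did not overlap, and Otc and Hal, whose 2 female values lay below all 4 male values. Each run is the 250 bases before the annotated start, written in the direction of transcription, with motif letters in capitals.

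Otc (chrX:10252055-10252304, plus strand): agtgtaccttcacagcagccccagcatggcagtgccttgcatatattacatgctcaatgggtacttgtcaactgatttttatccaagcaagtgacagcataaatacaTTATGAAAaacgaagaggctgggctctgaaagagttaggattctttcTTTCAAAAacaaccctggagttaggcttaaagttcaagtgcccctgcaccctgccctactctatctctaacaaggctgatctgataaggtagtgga

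Hal (chr10:93488518-93488767, plus strand): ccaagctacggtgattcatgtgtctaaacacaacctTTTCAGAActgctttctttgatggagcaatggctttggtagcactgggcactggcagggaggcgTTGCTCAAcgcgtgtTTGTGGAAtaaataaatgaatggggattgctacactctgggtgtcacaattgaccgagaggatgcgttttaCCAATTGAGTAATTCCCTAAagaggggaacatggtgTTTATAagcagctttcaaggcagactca

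Slc25a15 (chr8:22398622-22398871, minus strand): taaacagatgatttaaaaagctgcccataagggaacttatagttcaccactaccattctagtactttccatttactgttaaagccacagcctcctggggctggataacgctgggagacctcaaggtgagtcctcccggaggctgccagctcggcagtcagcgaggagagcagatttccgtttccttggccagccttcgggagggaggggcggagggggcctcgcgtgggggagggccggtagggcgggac

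Both strands were searched for 9 motifs: TATAAA (the TATA box), CCAAT (the CCAAT box), TGACG (a cAMP response element half-site), TTNNGNAA (the C/EBP family), TGTTCT (a glucocorticoid receptor half-site), GTTAAT (an HNF1 half-site), CAAAGTCC (HNF4), TGTTTAC (forkhead factors) and TTCNNNGAA (STAT factors). The C/EBP letters were found in Otc, at -143 (TTATGAAA) and -96 (TTTCAAAA), counted from the annotated start to the first base of the match. Hal held them 5 times, at -214, -150, -135, -60 and -52. Nags held them once, at -231. These letters occur in 36.8% of the 32851 RefSeq windows of the same length, so their presence in 3 of the 5 genes does not set the genes apart. Hal alone of the 5 held the TATA letters, at -28 on the opposite strand (TTTATA), and the CCAAT letters, at -64, where they overlap the C/EBP match at -60. Of all windows, 12.4% held the TATA letters and 33.8% the CCAAT letters. None of the 9 motifs was found in Slc25a15 or Ass1. The other 6 motifs were in none of the 5 windows, against 17.8% of all windows for TGACG, 16.1% for TGTTCT, 6.43% for GTTAAT, 1.20% for CAAAGTCC, 3.17% for TGTTTAC and 7.02% for TTCNNNGAA. A match is a string of letters and not a measured binding site.

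Levels are given in TPM, the relative number of transcripts of a gene, scaled to transcript length and to a fixed total per library, so that genes can be compared with each other. The files hold no read totals, so depth is unknown. Each library sums to 1000000 TPM and held between 10059 and 11125 genes at 1 TPM or more. The 10 genes together took 0.861% to 1.34% of all TPM. The hepatocyte marker list was detected at 57352 to 87879 TPM in sum, of which Alb (albumin) had 38059 to 55647. In bulk liver, fewer cells of a type and less RNA per cell cannot be told apart. Surf4 itself was at 92.5, 94.5 and 92.5 TPM in the controls and at 59.0, 71.8 and 54.3 TPM in the Alb-Cre+ mice, with no overlap. Its log2 fold change was -0.60 (SE 0.13), with an adjusted p of 1.00 by limma. This value sums all Surf4 transcripts and does not separate those without exon 2.

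The cytosolic enzymes were the most abundant of the 10. Ass1 was at 4044, 2609 and 5683 TPM in the controls and at 4474, 3453 and 3321 TPM in the Alb-Cre+ mice. Its lowest and highest values both came from controls, the female and the male replicate 3, and the 2 genotypes overlapped. Arg1 was the steadiest gene, at 2943, 3313 and 3402 TPM in the controls and 3431, 3451 and 2768 TPM in the Alb-Cre+ mice. Its highest value was 1.25 times its lowest, against a median of 1.45 times over the 5149 genes that averaged 10 TPM or more. Asl was at 1202, 850 and 1312 TPM in the controls and at 1443, 1211 and 1334 TPM in the Alb-Cre+ mice. The female control had the lowest Asl value, and each Alb-Cre+ mouse lay above the control with the same replicate number.

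Of the mitochondrial enzymes, Cps1 was at 966, 685 and 854 TPM in the controls and at 1069, 1000 and 783 TPM in the Alb-Cre+ mice. Otc was at 191, 142 and 233 TPM in the controls and at 200, 183 and 211 TPM in the Alb-Cre+ mice. For both genes the female control was the lowest of the 6 mice. Nags, the least abundant of the 10, was at 50.7, 46.3 and 56.6 TPM in the controls. In the Alb-Cre+ mice Nags was at 42.4, 73.7 and 39.2 TPM, so that the female was above every other mouse and both males were below every control.

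Slc25a15 was at 195, 210 and 277 TPM in the controls and at 193, 167 and 133 TPM in the Alb-Cre+ mice. All 3 Alb-Cre+ mice lay below all 3 controls, although the highest Alb-Cre+ value and the lowest control value were 193 and 195 TPM. Among the ammonia-releasing enzymes, Gls2 was at 220, 144 and 385 TPM in the controls and at 248, 217 and 193 TPM in the Alb-Cre+ mice. Control replicate 3 was the highest and the female control the lowest of all 6 mice for Gls2, and the Alb-Cre+ values lay between them. Hal was at 258, 151 and 302 TPM in the controls and at 367, 210 and 254 TPM in the Alb-Cre+ mice. In each genotype the female had the lowest Hal value. Sds was at 459, 464 and 911 TPM in the controls and at 700, 350 and 485 TPM in the Alb-Cre+ mice, with control replicate 3 well above the rest.

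**Figure D1:**
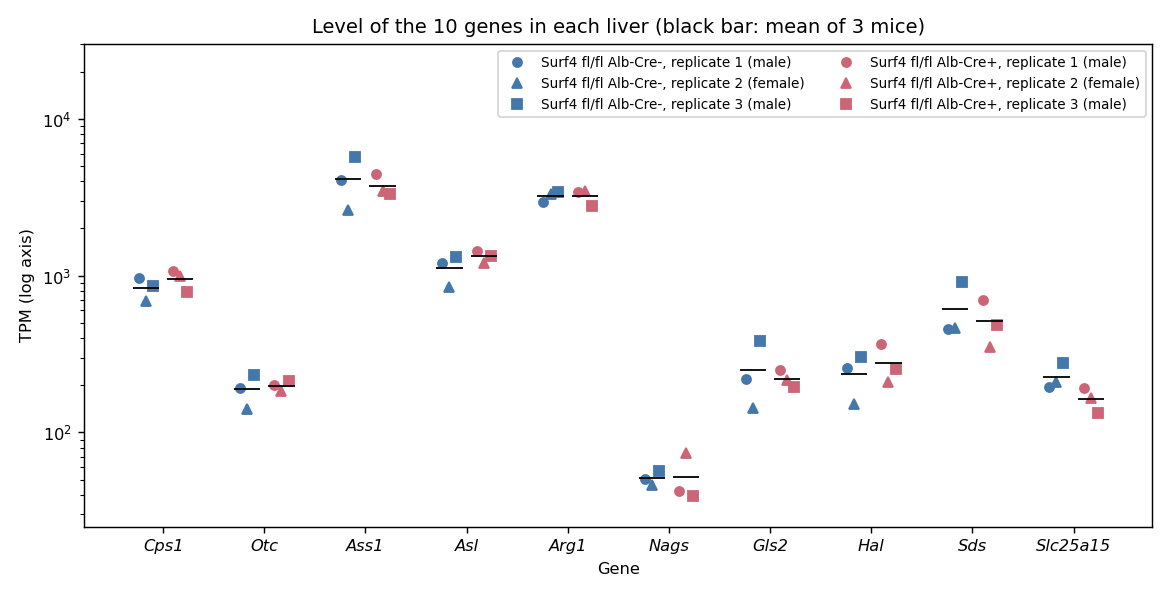
TPM of the 10 genes (x axis) in each liver on a log axis, controls in blue and Alb-Cre+ mice in red, with circles, triangles and squares for replicates 1, 2 (female) and 3 and a black bar at the mean of 3 mice. The groups overlap for every gene but Slc25a15, and the blue triangle is the lowest point for Cps1, Otc, Ass1, Asl, Gls2 and Hal.

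Ordered by mean TPM over the 6 mice, the genes ran Ass1, Arg1, Asl, Cps1, Sds, Hal, Gls2, Slc25a15, Otc and Nags. Ass1 ranked 46 and Arg1 54 of all 35540 genes, and Nags ranked 1682. Ass1 (3931 ± 1070 TPM, SD, n = 6) and Arg1 (3218 ± 290 TPM) did not differ beyond their spread, although Ass1 was above Arg1 in 5 of 6 mice. Arg1 was above Asl (1225 ± 204 TPM) in 6 of 6 mice with no overlap of their ranges. Asl was above Cps1 (893 ± 145 TPM) in 6 of 6 mice, and Cps1 was above Sds (561 ± 206 TPM) in 5 of 6. Sds in turn was above Hal in 6 of 6 mice. Next came Hal (257 ± 74.1 TPM), Gls2 (235 ± 81.4 TPM), Slc25a15 (196 ± 48.2 TPM) and Otc (193 ± 30.8 TPM). Neighbours among these could not be ordered, since the first of each was the higher in 3 to 5 of the 6 mice. With all transcripts summed, Hal, the first of them, was above Otc, the last, in 6 of 6 mice, although their ranges overlapped. For coding transcripts the order of Hal and Otc was the reverse. The only coding transcript of Hal was at 77.6 to 190 TPM and lay below Otc in every mouse, while all Otc transcripts are coding. Gls2 and Nags also held noncoding transcripts, so the order given here is that of summed transcripts. Nags (51.5 ± 12.5 TPM) was below Otc in 6 of 6 mice with no overlap. Otc, the partner of Cps1 in the mitochondrion, was thus the lowest of the 5 cycle enzymes.

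For most of the genes 1 annotated transcript carried the signal. Cps1 was measured by 1 transcript of 38 exons and 5555 bases. The main transcript held 99.8% of Ass1, 99.7% of Arg1, 99.7% of Slc25a15, 97.5% of Otc and 95.3% of Sds, as means over the 6 mice. Asl was divided among 4 coding transcripts with 39.3%, 27.7%, 27.0% and 5.52% of its TPM. Hal was divided otherwise: 49.8% came from its coding transcript of 20 exons and 5319 bases, and 41.4% from a noncoding transcript of 5 exons and 851 bases. A further 8.70% of Hal lay in a transcript annotated for nonsense-mediated decay. In Gls2 the coding transcripts held 64.7% and transcripts with a retained intron 31.2%. In Nags the coding transcript held 68.9% and processed transcripts without a reading frame 31.1%. TPM divides by length, so a short noncoding transcript weighs more here than its share of reads. The noncoding share of Hal in that transcript was 41.2% ± 1.29 (SD, n = 3) in the controls and 41.6% ± 1.20 in the Alb-Cre+ mice. The coding share of Gls2 was 64.8% ± 2.52 against 64.5% ± 2.07, and that of Nags 68.8% ± 2.77 against 69.1% ± 7.17. For these 3 genes the genotype means differed by less than the spread between mice. The lowest coding share of Nags, 61.0%, was in the Alb-Cre+ female, the mouse with the highest Nags level.

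**Figure D2:**
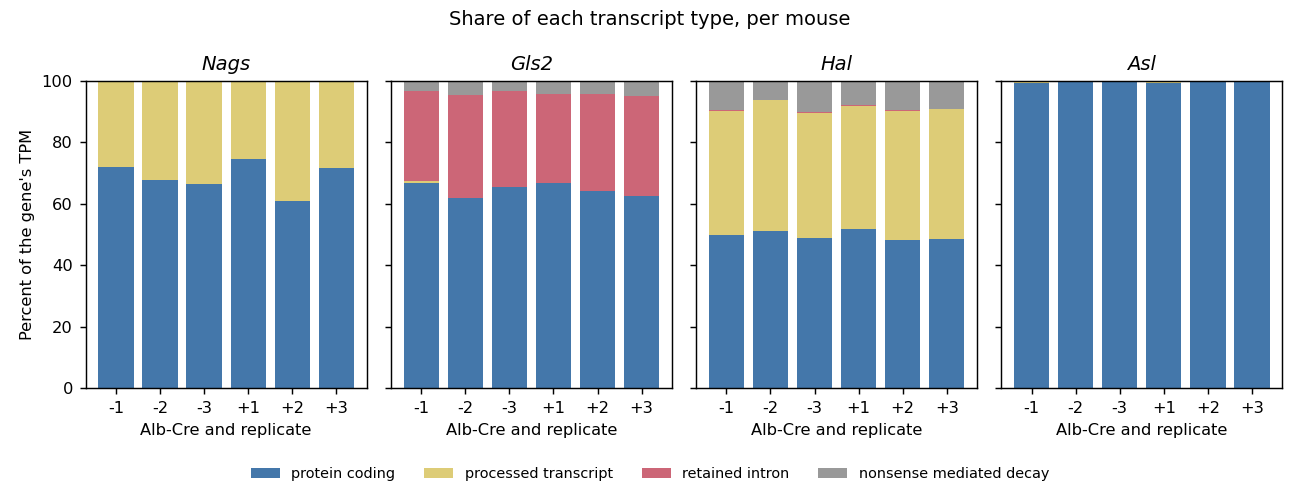
Percent of each gene's TPM (y axis) in protein-coding, processed, retained-intron and nonsense-mediated-decay transcripts for Nags, Gls2, Hal and Asl, 1 bar per mouse, labelled by Alb-Cre status and replicate number. About equal parts of Hal are coding and noncoding in all 6 mice (coding 48.2% to 51.7%), whereas Asl is coding almost throughout (99.3% to 99.8%).

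The main comparison was Alb-Cre+ against Alb-Cre- livers, which asks whether loss of Surf4 in hepatocytes went with a different level of the 10 genes. No gene of the 10 passed an adjusted p of 0.01 in limma's test on log2(TPM + 0.1) with Benjamini-Hochberg adjustment. The background was the same, at 0% of the 14189 genes tested, with 250 genes (1.76%) at an unadjusted p under 0.05. Of the 10 genes, 4 were higher and 6 lower in the Alb-Cre+ mice, and their median log2 fold change was -0.02, against 7145 of 14189 genes lower (50.4%) and a median of -0.00 over all genes. Values in TPM + 0.1 understate the change of low genes, which does not bear on genes at these levels. In simulated libraries with the spread of these mice, 76% of genes changed by 2 on the log2 scale passed the threshold and 23% of those changed by 1. The simulated errors were independent between genes, and a set of abundant genes was changed at once. Real mice can differ in many genes together, so these shares need not hold for them.

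The cycle enzymes differed little. The log2 fold change was 0.19 for Cps1 (SE 0.19, 95% interval -0.26 to 0.64) and 0.10 for Otc (SE 0.19, -0.35 to 0.55). Ass1 had -0.07 (SE 0.31, -0.80 to 0.65). Asl had 0.27 (SE 0.20, -0.20 to 0.73) and was higher in all 3 same-numbered pairs, as were 11.5% of all genes tested. Arg1 had -0.01 (SE 0.18, -0.42 to 0.41), the value closest to 0 of the 10. These intervals leave room for changes of up to 0.80 on the log2 scale for Ass1 and up to 0.42 for Arg1, and a missed threshold does not show that the genotypes were alike. The adjusted p was 1.00 for each of the 10 genes.

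Slc25a15, the ornithine carrier, stood at the lower end with a log2 fold change of -0.47 (SE 0.19, 95% interval -0.92 to -0.01). Its unadjusted p of 0.0449 in limma became an adjusted p of 1.00. It was the 1 gene of the 10 whose groups did not overlap in TPM, against 4.90% of all genes tested. It was also the 1 gene of the 10 with an unadjusted p under 0.05 in the main fit. With 3 mice in each group the exact two-sided permutation p was 0.1, the smallest that the design allows. The difference was carried unevenly by the same-numbered pairs, at -0.02 in pair 1, -0.33 in pair 2 and -1.06 in pair 3. Leaving out control replicate 3 gave -0.32 and leaving out Alb-Cre+ replicate 3 gave -0.33, with unadjusted limma p-values of 0.144 and 0.139. With the replicate number as a block, limma's unadjusted p was 0.0689. It was 0.0819 without the mean-variance trend and 0.0507 without the filter on low values. Scaling that sets the typical gene equal in all libraries (median-of-ratios) gave 0.0662, and the groups of Slc25a15 then overlapped. The limma p stayed under 0.05 with a pseudocount of 1 TPM (0.0448), without the mitochondrially encoded genes (0.0466) and with sex as a covariate (0.0477).

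The ammonia-releasing enzymes and Nags had wide intervals. Gls2 had a log2 fold change of -0.08 (SE 0.33, 95% interval -0.86 to 0.71), Hal 0.24 (SE 0.30, -0.47 to 0.96), Sds -0.24 (SE 0.35, -1.05 to 0.58) and Nags -0.04 (SE 0.25, -0.62 to 0.54). For each of these 4 genes the same-numbered pairs disagreed in sign. Gls2, for example, was higher by 0.17 and 0.59 in pairs 1 and 2, and lower in pair 3, at -0.99.

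**Figure D3:**
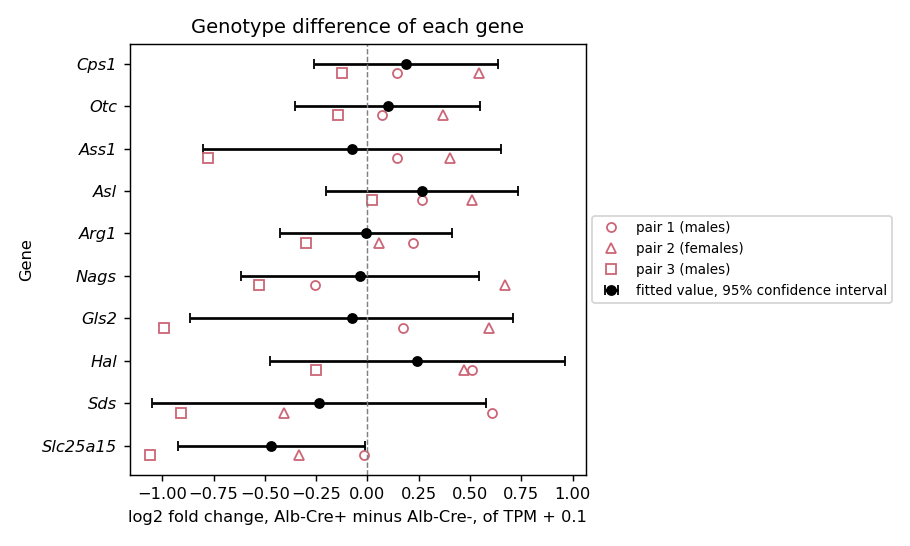
log2 fold change of TPM + 0.1, Alb-Cre+ minus Alb-Cre- (x axis), for each gene (y axis), as the fitted value with its 95% confidence interval in black and the 3 same-numbered pairs as open red symbols. Every interval except that of Slc25a15 (-0.92 to -0.01) includes 0, and the squares of pair 3 lie left of 0 for 9 of the 10 genes.

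The 10 genes varied between mice of one genotype as well as between genotypes. In pair 3, 9 of the 10 genes were lower in the Alb-Cre+ mouse, while 8 were higher in pair 1 and 8 in pair 2. Without control replicate 3 only 1 of the 10, Slc25a15, was lower, and the median log2 fold change was 0.20. Without Alb-Cre+ replicate 3, 2 were lower and the median was 0.08, so the split of 4 higher and 6 lower rested on these 2 mice. Control replicate 3 was the highest of the 6 mice for Otc, Ass1, Gls2, Sds and Slc25a15, which is 5 of the 10 genes against 10.8% of all genes. The female control was the lowest for 6 of the 10 against 12.1% of all genes. The spread on the log2 scale was larger among controls than among Alb-Cre+ mice for 7 of the 10 genes, compared with 40% of all genes. Among controls it was widest for Gls2, with an SD of 0.71 against 0.18 among Alb-Cre+ mice. Sds had 0.57 and 0.50, and Ass1 0.56 and 0.23.

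**Figure D4:**
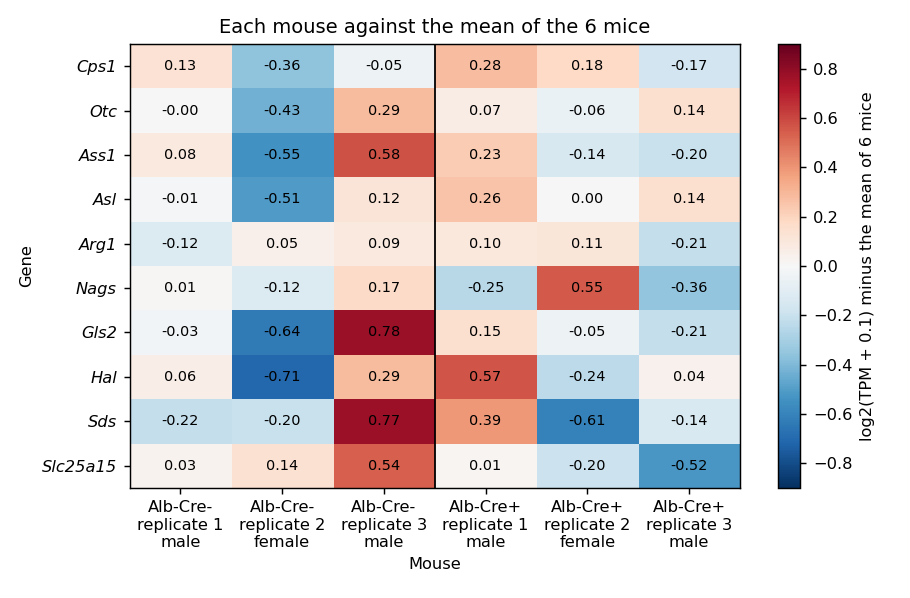
log2(TPM + 0.1) of each gene (rows) in each mouse (columns, controls left of the line) minus that gene's mean over the 6 mice, printed in each cell and coloured from blue (below) to red (above). The column of control replicate 2 is below 0 for 8 genes and that of control replicate 3 above 0 for 9, and the 3 Alb-Cre+ columns hold values closer to 0 than both of these for Otc, Ass1 and Gls2.

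The mean profile of the 5 cycle enzymes ran from -0.36 in the female control to 0.20 in control replicate 3, on the centred log2 scale, with the 3 Alb-Cre+ mice between -0.06 and 0.19. By the root-mean-square difference of centred log2 values over the 6 mice, the genes most like it among 5139 genes were Ogdh (0.04), Dhdh (0.05), Akr1c14 (0.05), Ppib (0.06) and Kmo (0.06), against a median of 0.27. Ogdh is a subunit of the mitochondrial 2-oxoglutarate dehydrogenase, Ppib a cyclophilin of the endoplasmic reticulum, and Kmo an enzyme of tryptophan breakdown. Of these genes 72 were at 0.10 or less. The cycle enzymes, each of which is part of the mean, were at 0.11 (Otc and Asl), 0.14 (Cps1), 0.19 (Ass1) and 0.20 (Arg1). Outside the cycle, Hal was at 0.24, Gls2 at 0.27, Nags at 0.32, Slc25a15 at 0.33 and Sds at 0.37. By this measure Nags, the gene of the activator of Cps1, was therefore no closer to the profile of the cycle than the typical gene. The measure counts the size of a deviation as well as its direction. In the female control and control replicate 3, Gls2 was at -0.64 and 0.78 and Hal at -0.71 and 0.29. Both thus had the signs of the profile there with larger deviations. Arg1 was at 0.05 and 0.09 in the same mice, so a small difference need not mean a shared pattern.

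Sex was the other labelled factor, with 2 females and 4 males. Since the females are also the 2 replicates numbered 2, sex and that number cannot be told apart. In a limma fit with genotype and sex, 8 of the 10 genes were lower in the females, with a median log2 difference (female minus male) of -0.37, against 23.3% of all genes lower and a median of 0.26 over all genes. Not one of the 10 genes had an adjusted p under 0.01, whereas 73 genes in all (0.514%) did. Median-of-ratios scaling, which sets the typical gene equal in all libraries, shifted the median of all genes to 0.01. Relative to that centre 9 of the 10 genes were lower in the females, against 49.4% of all genes, and their median was -0.64. Abundant genes as a whole lay lower than the typical gene. Among the 5149 genes averaging 10 TPM or more, as the 10 genes do, the median was 0.14 in TPM and -0.13 after scaling.

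Hal and Otc were the genes whose females lay below all males in TPM. Hal was at 151 and 210 TPM in the females and 254, 258, 302 and 367 TPM in the males. Its log2 difference was -0.71 (SE 0.18, limma adjusted p 0.0652) in TPM and -0.98 (SE 0.14, adjusted p 0.0237) after scaling. Otc was at 142 and 183 TPM in the females and 191, 200, 211 and 233 TPM in the males. Its difference was -0.37 (SE 0.14, limma adjusted p 0.152) in TPM and -0.64 (SE 0.15, adjusted p 0.0571) after scaling. Such separation in this direction was seen in 5% of all genes in TPM. After scaling it was seen for 7 of the 10 genes (Cps1, Otc, Ass1, Asl, Gls2, Hal and Sds), against 19.8% of all genes.

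Asl had a sex difference of -0.38 (SE 0.14, limma adjusted p 0.138) in TPM and of -0.65 (SE 0.13, adjusted p 0.0421) after scaling. The differences of Ass1 (-0.52, SE 0.25), Gls2 (-0.51, SE 0.30) and Sds (-0.61, SE 0.29) were as large but less certain, with limma adjusted p-values of 0.225, 0.307 and 0.224. Cps1 was at -0.14 (SE 0.19) and Slc25a15 at -0.05 (SE 0.20). Arg1 was higher in females by 0.11 (SE 0.16) in TPM and lower, at -0.15 (SE 0.16), after scaling. Nags was higher in the females under both scalings, by 0.32 (SE 0.23) and 0.05 (SE 0.20). Without the female control the TPM difference went to 0.13 for Cps1, -0.01 for Gls2, -0.16 for Ass1, -0.17 for Otc and -0.20 for Asl. In TPM these 5 sex differences thus rested largely on that mouse. Hal was at -0.54 in TPM without the female control. After scaling, both females lay below all males for each of these 5 genes. The median centred value of the genes described here was then -0.31 in the Alb-Cre+ female and -0.50 in the female control. In the scaled values the lower level was therefore not confined to the female control.

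**Figure D5:**
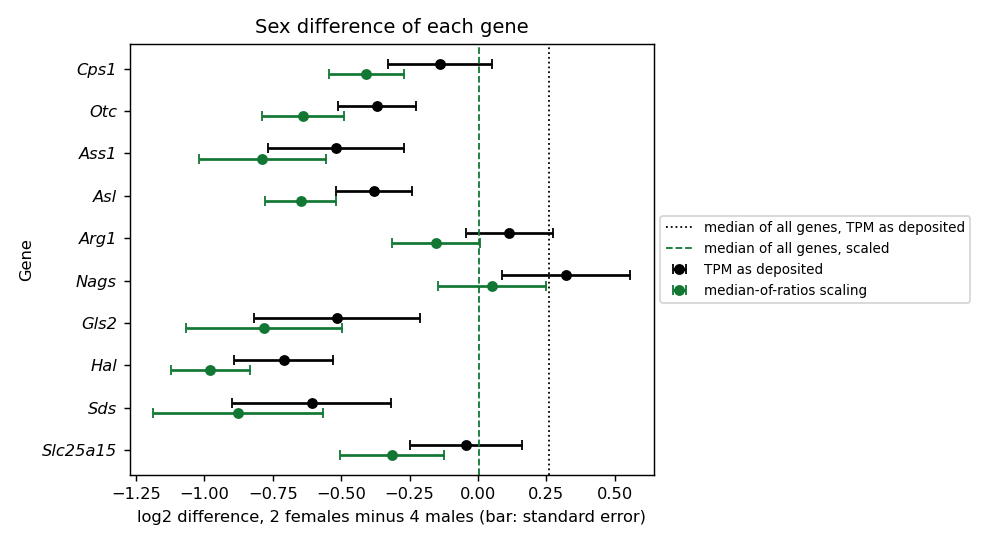
log2 difference of 2 females minus 4 males (x axis) for each gene (y axis), with the standard error as a bar, in TPM as deposited (black) and after median-of-ratios scaling (green), and with vertical lines at the median of all genes under each. All genes but Nags lie left of the line of their own scaling, with Hal the farthest at -0.71 and -0.98.

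Markers of other cell types also differed in the same 2 mice. All 8 Kupffer cell markers were higher in the females, summing to 481 and 518 TPM against 132 to 203 TPM in the males, and none of the 8 was at 0 in all mice. All 8 leukocyte markers were higher too, at 128 and 259 TPM against 21.8 to 47.0 TPM, as were all 8 sinusoidal endothelial markers, at 188 and 221 TPM against 87.8 to 146 TPM. The 5 erythroid markers tested were lower, at 103 and 131 TPM against 172 to 408 TPM. In TPM only 23.3% of all genes were lower in the females. Of the other lists, 6 of 7 hepatocyte, 6 of 8 stellate and 4 of 6 cholangiocyte markers were higher in them. After median-of-ratios scaling the median sex difference was 1.30 for Kupffer, 1.07 for leukocyte and 0.42 for endothelial markers. It was -0.09 for hepatocyte markers and 0.01 over all genes. The part of these markers in the sex difference of the 10 genes was not tested. Between the genotypes the summed Kupffer, leukocyte, endothelial, stellate, cholangiocyte and erythroid markers overlapped. Of these lists, 2 of 8 Kupffer, 6 of 8 leukocyte, 4 of 8 endothelial, 3 of 8 stellate, 2 of 6 cholangiocyte and 1 of 5 erythroid genes tested were higher in the Alb-Cre+ mice. These counts turned on single mice: leaving out 1 took the number lower from 0 to 7 for Kupffer, 1 to 7 for leukocyte, 1 to 8 for endothelial, 2 to 8 for stellate, 3 to 5 for cholangiocyte and 0 to 5 for erythroid markers. Of the hepatocyte markers 1 of 7 was higher and 6 were lower (median -0.14). Of the exocrine pancreas markers 5 of 8 were at 0 in all mice.

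Whether the genotype difference itself depended on sex was tested with an interaction term, with 1 female per genotype. Of the 10 genes only Nags had an unadjusted limma p under 0.05, against 6.08% of all genes. Nags was higher in the Alb-Cre+ mouse of the female pair by 0.67 and lower in the male pairs, at -0.26 and -0.53. Its interaction was 1.06 (SE 0.21, limma p 0.00527) and its adjusted p 0.775, which did not pass, and 0 genes of 14189 had an adjusted p under 0.05.

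Of the genes that supply ammonia and amino acids, 15 of 20 were lower in the Alb-Cre+ mice and 5 higher, with a median log2 fold change of -0.15. Among the 5149 genes averaging 10 TPM or more, 3112 were lower and the median was -0.03. None of the 20 passed the adjusted p of 0.01 in limma. An unadjusted p under 0.05 in the lower direction was reached by 5 of the 20, against 0.958% of all genes. With the replicate number as a block 3 of the 20 reached it, and Slc25a22 (block p 0.0540 by limma) and Asns (block p 0.0737 by limma) did not. The groups did not overlap for 3 of the 5, against 2.71% of all genes. Without Alb-Cre+ replicate 3, 11 of the 20 were lower and the median was -0.03. Slc7a2, a carrier of cationic amino acids such as arginine and ornithine, was at 132, 176 and 179 TPM in the controls and at 115, 126 and 99.7 TPM in the Alb-Cre+ mice. Its log2 fold change was -0.51 (SE 0.16). Slc38a4, a carrier of neutral amino acids, was at 600, 644 and 820 TPM in the controls and at 473, 537 and 501 TPM in the Alb-Cre+ mice, a log2 fold change of -0.44 (SE 0.16).

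Gpt2, the mitochondrial alanine aminotransferase, was at 354, 362 and 354 TPM in the controls and at 297, 274 and 310 TPM in the Alb-Cre+ mice, a log2 fold change of -0.28 (SE 0.11). The other 2 were Slc25a22, a mitochondrial glutamate carrier, at -0.44 (SE 0.17), and Asns, which makes asparagine, at -1.44 (SE 0.60). Asns stood at 17.1 TPM in control replicate 3 and between 1.62 and 5.64 TPM in the other mice, and without that control its log2 fold change was -0.82. Glud1 (glutamate dehydrogenase) and Oat (ornithine aminotransferase) were the most abundant of the list, with 508 to 803 TPM and 507 to 943 TPM, and both genotypes overlapped. Glul (glutamine synthetase), the pericentral counterpart of the cycle, was at 510, 490 and 185 TPM in the controls and at 516, 570 and 450 TPM in the Alb-Cre+ mice. Control replicate 3, the mouse with the highest Ass1 and Gls2, thus had the lowest Glul.

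Of the amino acid breakdown enzymes 14 of 19 were lower and 5 higher, at a median of -0.12 on the log2 scale, and none passed in limma. Of all genes 50.4% were lower. Of the 5149 genes averaging 10 TPM or more, 3112 were lower, and their median was -0.03. The split of the 19 enzymes rested on control replicate 3, without which 8 of the 19 were lower and the median was 0.02. Agxt, which transfers the amino group of alanine to glyoxylate, was the lowest of them. It was at 326, 311 and 349 TPM in the controls and at 194, 250 and 169 TPM in the Alb-Cre+ mice, with no overlap. Its log2 fold change was -0.70 (SE 0.16) with an unadjusted p of 0.00351 and an adjusted p of 1.00 by limma. Tat (tyrosine aminotransferase) was at -0.36 (SE 0.36) and Cbs (cystathionine beta-synthase) at -0.34 (SE 0.15), both with groups that overlapped. Tat and Tdo2 (tryptophan dioxygenase) were abundant in all mice, at 765 to 2121 TPM and 1773 to 2606 TPM.

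Of the users of arginine and ornithine 6 were higher and 5 lower of 11 tested (median 0.01), and the number lower ran from 2 to 9 when 1 mouse was left out. Odc1 (ornithine decarboxylase) was at 63.6, 92.3 and 61.2 TPM in the controls and at 65.3, 100 and 56.1 TPM in the Alb-Cre+ mice, the highest value of each genotype being the female's. Of 15 other periportal markers 10 were higher and 5 lower in the Alb-Cre+ mice (median 0.03), and none had an unadjusted p under 0.05. Without Alb-Cre+ replicate 1, 11 of these 15 were lower, and without the female control 10 were. Of 15 pericentral markers 5 were higher and 10 lower (median -0.10), and Lhpp was the 1 with an unadjusted p under 0.05, at -0.55 (SE 0.22). In the comparison of the sexes, 11 of 15 other periportal markers were lower in the females (median -0.23) and 12 of 15 pericentral markers were higher (median 0.37), beside 23.3% of all genes lower and a median of 0.26, so the pericentral share was near that of all genes. After median-of-ratios scaling 12 of the 15 other periportal markers were lower (median -0.50), and of the pericentral markers 6 were lower and 9 higher (median 0.10). Cyp2f2, a periportal cytochrome P450, was at 189 and 361 TPM in the females against 483 to 595 TPM in the males. Pck1, the gluconeogenic PEP carboxykinase, was at 1110 and 613 TPM in the females against 1479 to 2424 TPM in the males. In TPM 6 of these 15 periportal markers were lower in both females than in all males, and 3 were higher. Hsd17b13 was at 854 and 1033 TPM in the females against 498 to 731 TPM in the males. Hsd17b6 was at 218 and 190 TPM against 62.8 to 148 TPM. These 2 genes stayed separated after scaling, and Ctsc, the other higher one, did not.

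Transcription factors and other regulators of the cycle were divided between the directions, with 8 higher and 9 lower of 17 (median -0.03), and none passed in limma. Hnf4a and Cebpa, which drive hepatocyte genes, were at 230 to 356 TPM and 116 to 183 TPM with overlapping genotypes. None of the 17 had an unadjusted p under 0.05, but with the replicate number as a block 4 of them had, against 4.69% of all genes. Klf15, a regulator of amino acid breakdown in fasting, was lower at -0.67 (block p 0.0138 by limma), and Ppara, the fasting-induced lipid receptor, was lower at -0.45 (block p 0.00988 by limma). Foxa2 and Creb3l3 were higher, at 0.39 (block p 0.0394 by limma) and 0.26 (block p 0.0380 by limma). With the block, 0 of these 4 had an adjusted p under 0.01. Their values moved with single mice: without Alb-Cre+ replicate 2, Klf15 was at -0.32 and Foxa2 at 0.12, and without Alb-Cre+ replicate 3 Ppara was at -0.17.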

How the data were processed

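Liver RNA of 6 mice was sequenced, 3 per genotype. Per the labels, the submitters' processing notes name STAR, RSEM, Salmon and DESeq2 and the build GRCm38, and the step that made each table is not given. The deposited values used here are TPM per transcript. A second deposited table holds the authors' own fold changes and p-values and was not used. TPM of 116748 transcripts were summed by gene symbol (163 without a symbol were left out), giving 35540 genes. The authors used DESeq2 at a false discovery rate of 0.01. With it their paper reported limited changes in the same livers. Derl3 was the most significant gene among those higher in Alb-Cre+ mice, and several genes of fatty acid synthesis were lower. That no gene passed here is a result of the fit described next, on other values and by another test. TPM are not whole reads, so limma 3.58.1 (R 4.3.3, with a mean-variance trend) was run on log2(TPM + 0.1), over 14189 genes that averaged 0.1 TPM or more, with Benjamini-Hochberg adjustment over all of them and a threshold of 0.01. Intervals come from that fit. Depth is unknown from TPM, and p-values measure the spread between 3 mice per genotype. The fit was tested on simulated data.

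Replicate numbers are shared between genotypes. Deviations from the genotype means correlated at 0.367, 0.588 and 0.370 across genes for same-numbered mice and at -0.444 to 0.171 otherwise. Such deviations cancel out within a genotype, so high values for some pairs force low ones for others. The highest value, 0.588, is that of the 2 females. The correlations therefore cannot decide whether the numbers pair the mice, and the replicate block was run as an alternative. Alternatives covered the pseudocount, filter, scaling, sex, the variance model, each mouse left out and, chosen after seeing the data, coding transcripts only. The 10 genes and all lists were chosen with earlier results of these data known. Named beyond them, by rule, were genes of each list with an unadjusted p under 0.05 (with or without the block), the 3 most abundant and the 3 with the largest change averaging 1 TPM or more, of which those bearing on the cycle are given, and the 5 genes nearest the cycle's profile. Sequences are from RefSeq and transcript types from GENCODE M21.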

Additional observations from a re-analysis of the deposited data

How the results depend on the processing

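No gene of the 10 passed an adjusted p of 0.01 under any of the 16 other settings of the genotype fit. Over all genes the count stayed at 0, except that leaving out 1 mouse gave 0 to 1, the 1 being Gm10240 without Alb-Cre+ replicate 1 (limma adjusted p 0.000309, named after its value was seen). The count at an unadjusted p under 0.05 rose from 250 to 666 genes with the replicate block. The block changed no call at an adjusted p of 0.01. Among the 10 genes and those of the pathway and zonation lists, at an unadjusted p under 0.05, it took away that of Slc25a15, Slc25a22 and Asns and added those of Cbs, Klf15, Ppara, Foxa2 and Creb3l3. The number of the 10 genes lower in Alb-Cre+ ranged from 1 to 7 and their median log2 fold change from -0.10 to 0.20 over the fits without 1 mouse.

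Leaving out 1 mouse at a time changed the sign of 7 of the 10 genes, whose log2 fold changes ran from -0.069 to 0.10 for Arg1, -0.37 to 0.19 for Ass1, -0.41 to 0.29 for Gls2, -0.049 to 0.45 for Hal, -0.32 to 0.13 for Nags, -0.093 to 0.27 for Otc and -0.49 to 0.089 for Sds. Tat ran from -0.61 to 0.040. Arg1 also moved to 0.00049 without the mitochondrially encoded genes. Cps1, Asl and Slc25a15 kept their sign in all of these fits. The cause of these shifts was not tested.

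In the comparison of the sexes, leaving out 1 mouse, an alternative chosen after seeing the data, gave 3 to 51 genes past the threshold in place of 73, and 6 to 9 of the 10 genes lower in the females, with none past the threshold. The female minus male difference ran from -0.41 to 0.13 for Cps1, -0.21 to 0.85 for Nags and -0.17 to 0.079 for Slc25a15, and Arg1 was at -0.15 with median-of-ratios scaling. Each fit that leaves out a female has 1 female and assumes that she varies like the other mice. Depth is unknown from TPM, so no limit from counting can be given.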
